A study of Mus musculus with 2 samples.

Results

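The distal microRNA (miRNA) cluster of the imprinted Dlk1-Dio3 domain was examined in mouse stomach late in gestation. Its members were taken by position alone: every miRNA gene with a row in the count tables that lies in a fixed window of chromosome 12 (mm10) around the distal cluster. This gave 38 hairpin genes out of 1973 in the tables, running from Mir379 (first base 109709060) to Mir3072 (last base 109747960), all on the plus strand. The GENCODE M21 annotation places 44 miRNA genes in that window. Mir409, Mir376a, Mir299a and Mir380 had no row of their own and were read from the strand opposite to the minus-strand rows Gm24321, Gm25252, Mir299b and Gm25750, which overlap them. The strand of these rows is that of GENCODE M21, while the counts were made on annotation M4, so the naming of these 4 genes rests on both annotations having the rows on the same strand. Mir376b and Gm44322 are not analysed here.

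Reads of small RNA, in the size class under 30 nucleotides by the labels, came from stomachs of B6NCrl mouse embryos at 16.5 days. There was 1 group with 2 biological replicates, each a pool of male and female embryos with no treatment or transgene named. Replicate 2 pooled 41 embryos, and the size of the pool for replicate 1 is not given. Both carry the same donor label, so p-values between them measure only the difference between these 2 libraries. Levels are in counts-per-million (CPM) of the reads assigned to miRNA genes, with each gene counted on the strand that held more of its reads. Those reads numbered 8001912 in replicate 1 and 8214795 in replicate 2, and a count of 0 allows a level of up to 0.375 and 0.365 CPM (3 reads).

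The Dlk1-Dio3 domain is imprinted: Dlk1, Rtl1 and Dio3 are expressed from the paternal chromosome, and the noncoding RNAs Meg3, Rian and Mirg, together with the miRNAs, from the maternal one. The distal miRNAs are thought to be cut from a long maternal transcript, and mice lacking them have been linked to poor adaptation of energy metabolism at birth. A hairpin is cut into a duplex of a 5p and a 3p arm, and the loaded arm finds messenger RNAs mainly through its seed, bases 2 to 8. The cluster is best known from brain and placenta, and its level in whole stomach averages over epithelium, muscle, vessels and nerve. Fewer cells of a type and less RNA per cell cannot be told apart in such pools.

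The mature sequences of the leading members are printed first. They were copied from RefSeq (GRCm38.p6), where 37 of the 38 members had at least 1 arm, and Gm27379 had none. All lie on the plus strand of chromosome 12, are written 5′ to 3′, and carry the seed in capitals. The tables count whole hairpins, so the reads of the arms were not told apart. The first set holds the listed arms of the 5 members with the most reads, of which Mir487b has only a 5p arm in the table.

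miR-411-5p: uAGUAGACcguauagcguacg
miR-411-3p: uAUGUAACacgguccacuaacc
miR-379-5p: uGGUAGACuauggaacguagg
miR-379-3p: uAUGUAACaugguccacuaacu
miR-487b-5p: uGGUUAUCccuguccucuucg
miR-409-5p: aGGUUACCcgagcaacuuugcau
miR-409-3p: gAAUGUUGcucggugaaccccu
miR-369-5p: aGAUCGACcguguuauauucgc
miR-369-3p: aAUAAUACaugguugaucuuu

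Mir379 and Mir411 are neighbours whose 3p arms share the seed AUGUAAC. These arms were identical at 20 of 22 bases, with U10C and U22C between them (miR-379 first, positions from 1 at the 5′ end). Their 5p arms were identical at 14 of 21 bases and differed inside the seed by G2A. With 5p and 3p arms searched together, 9 members shared a seed with another member, in 5 pairs. The second set gives the arms of the other 4 pairs, beside miR-379-5p above.

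miR-1193-5p, seed of miR-379-5p: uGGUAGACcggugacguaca
miR-758-5p: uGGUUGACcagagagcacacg
miR-1197-5p: cGGUUGACcaugguguguacg
miR-496a-5p: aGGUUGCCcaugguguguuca
miR-453: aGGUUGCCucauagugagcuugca
miR-494-5p: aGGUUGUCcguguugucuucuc
miR-410-5p: aGGUUGUCugugaugaguucg

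Counted as whole hairpins, the members that share a seed held 33.8% of the cluster's reads, 32.8% in replicate 1 and 34.8% in replicate 2. Mir379 and Mir411 supplied most of this, at 17651 and 16611 CPM together. The pair of Mir494 and Mir410 stood at 503 and 381 CPM, and Mir758 with Mir1197 at 35.1 and 14.9 CPM. Mir496a with Mir453 stood at 400.2 and 151 CPM, nearly all of it Mir496a, since Mir453 had 1 read in replicate 1 and 0 in replicate 2. Mir379 with Mir1193 stood at 6491 and 6113 CPM. How many of these reads came from the arms that carry the shared seed is not known.

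A second likeness lay outside the seed. The letters GGU stood at bases 11 to 13 of 11 of the 33 listed 3p arms of members (33.3%), shown here with those letters in capitals. Among all other mouse 3p arms in the same RefSeq table, 11 of 672 (1.64%) held GGU at that place. Within the first 5 bases of the 5p arm, GGU was found in 17 of 35 members' arms (48.6%) and in 36 of 661 other arms (5.45%). This motif was picked after the sequences had been read, and it was searched on the RNA strand only.

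miR-379-3p: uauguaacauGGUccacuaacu
miR-411-3p: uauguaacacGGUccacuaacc
miR-299a-3p: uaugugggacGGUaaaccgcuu
miR-380-3p: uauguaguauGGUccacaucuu
miR-1197-3p: uaggacacauGGUcuacuucu
miR-323-3p: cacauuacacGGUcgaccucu
miR-758-3p: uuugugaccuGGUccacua
miR-543-3p: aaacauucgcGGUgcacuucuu
miR-495-3p: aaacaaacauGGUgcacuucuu
miR-154-3p: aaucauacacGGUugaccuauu
miR-369-3p: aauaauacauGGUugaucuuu

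The hairpins that carry this 3p form differed widely in level, from 1.10 CPM for Mir1197 to 11881 CPM for Mir411, with a median of 766 CPM over the 11. The 22 members whose 3p arm lacks it had a median of 276 CPM, from 0.0625 to 4947 CPM. On a log scale the ranges overlapped over most of their length.

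The next question was how much of the stomach's miRNA reads came from the cluster. It held 5.61% ± 0.542 (SD, n = 2) of the assigned reads. Replicate 1 had 479367 reads in the cluster, or 5.99%, with a 95% interval (Clopper-Pearson) from 5.97% to 6.01%. Replicate 2 had 429110, or 5.22%, with an interval from 5.21% to 5.24%. These intervals cover counting error only, and they did not overlap. On the same scale, that of total assigned reads, the median log2 ratio of replicate 1 over replicate 2 was 0.20 over all 296 genes tested, so a higher value in replicate 1 was not particular to the cluster. Of this, the 4 hairpins counted on the opposite strand gave 1.07% ± 0.0853 and the 34 with their own row 4.53% ± 0.457. The 17 genes with a row on a list of proximal Dlk1-Dio3 miRNAs, around Mir127, held 1.85% ± 0.243, where 1 row is named Mir3071 in GENCODE M21 and its gene on annotation M4 is uncertain. The cluster thus had 2.96 times the reads of the proximal list in replicate 1 and 3.12 times in replicate 2, from 38 genes against 17. The median of the mean levels was 320 CPM over the 38 members and 392 CPM over the 17 proximal genes. Of the 38 members, 33 reached 10 CPM in both libraries (86.8%), against 14.4% of all 1973 rows in the tables. A level of 1000 CPM in both was reached by 12 members (31.6%), against 5.12% of all rows.

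Few hairpins made up most of these reads. The 5 highest members held 59.7% ± 2.45 (SD, n = 2) of the cluster's reads and the 10 highest 85.8% ± 1.41. Mir411 alone took 20.4% of the cluster in replicate 1 and 22.1% in replicate 2. Mir487b followed with 12.98% and 13.06%, so its part of the cluster was nearly the same in both pools. Mir381 had 5.97% in replicate 1 and 4.53% in replicate 2, while Mir411 had the larger part in replicate 2.

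**Figure D1:**
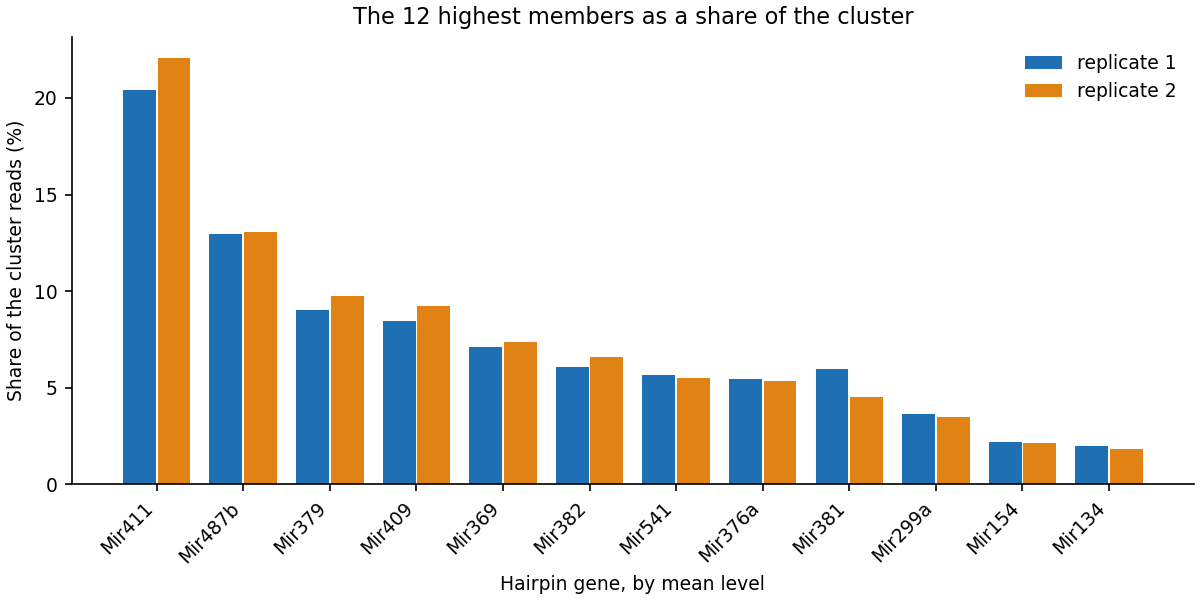
Share of the cluster's reads (%, vertical axis) taken by each of the 12 highest hairpin genes (horizontal axis), with 1 bar for each library. Mir411 holds 20.4% and 22.1%, and the bars then decline to about 2% for Mir154 and Mir134, in nearly the same order in both libraries.

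Mir411 (109710175 to 109710256) was the highest member and ranked 21 among all rows. It had 97897 reads in replicate 1 and 94691 in replicate 2, or 12234 and 11527 CPM. Its hairpin shares a stretch of 20 bases with that of Mir758, so its count is uncertain for any read that fits either hairpin. Mir487b (109727333 to 109727414) had 62210 and 56032 reads, or 7774 and 6821 CPM. It shares 20 bases with Mir376b, and the same limit holds. Mir379 (109709060 to 109709125), the first hairpin of the cluster, had 43346 and 41767 reads, or 5417 and 5084 CPM. The ranges of these 3 genes did not overlap, so their order was the same whichever library was taken.

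Mir409 came next and is 1 of the genes read opposite to a minus-strand row. It had 40549 and 39648 reads, or 5067 and 4826 CPM, and lies from 109743158 to 109743236 in an intron of Mirg. Without the opposite strand this gene would be counted at 0, and the cluster would lose its fourth-ranked member. Mir376a stood at 3274 and 2779 CPM, and miR-376 hairpins are known as targets of A-to-I editing. Mir299a stood at 2185 and 1810 CPM and Mir380 at 813 and 718 CPM. These 4 genes ranked 4, 8, 10 and 14 within the cluster, and together they held 18.9% and 19.4% of its reads.

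Mir369 (109743418 to 109743496, in an exon of Mirg) had 4254 and 3849 CPM, and its 3p arm has been studied as a binder of AU-rich messenger RNA ends. Mir382 had 3647 and 3433 CPM and Mir541 3392 and 2858 CPM. Mir381 had 3574 and 2366 CPM, a wider gap than its neighbours in rank. The ranges of Mir541, Mir376a and Mir381 over the 2 libraries overlapped. Mir541 was above Mir376a in both libraries. Mir381 was above both of them in replicate 1 and below both in replicate 2, so its place is not settled. Its range also overlapped that of Mir382, which was higher in each library. Mir154, at 1315 and 1117 CPM, Mir134, at 1173 and 944 CPM, and Mir1193, at 1074 and 1029 CPM, overlapped with at least 1 neighbour as well. miR-134 is known from neurons, where it represses Limk1 in dendrites.

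In all, 11 members stood between 100 and 1000 CPM in the library where they were lower: Mir134, Mir380, Mir300, Mir329, Mir376c, Mir543, Mir494, Mir323, Mir667, Mir496a and Mir485. Another 10 stood between 10 and 100 CPM there, among them Mir410, Mir377, Mir412 and Mir3072. miR-485, known in neurons for repressing the synaptic vesicle protein SV2A, had 263 and 183 CPM. Of the lower group, Mir410 had 127 and 86.6 CPM, Mir377 114.6 and 86.4 CPM and Mir539 105.6 and 55.5 CPM. Mir679 had 104.7 and 88.0 CPM, and Mir666 46.61 and 45.04 CPM. Mir3072, the last hairpin of the cluster, had 36.7 and 29.6 CPM. Mir300 and Mir381 have nearly the same 3p arm, at 19 of 22 identical bases, with G4A within the seed (miR-300 first), yet Mir300 stood at 666 and 514 CPM.

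miR-300-3p: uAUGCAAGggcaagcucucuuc
miR-381-3p: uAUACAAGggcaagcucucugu

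Other pairs with like 3p arms also differed in level. The arms of miR-154 and miR-369, both printed above with their GGU, were identical at 17 of 21 bases, with C4A inside the seed (miR-154 first). Mir154 had 1315 and 1117 CPM and Mir369 more than that in both libraries. The arms of miR-495 and miR-543 were identical at 18 of 22 bases, with A6U and A7U inside the seed (miR-495 first). Mir543 had 365 and 372 CPM, and after scaling by trimmed mean of M values its log2 ratio of replicate 1 over replicate 2 was the lowest of the 33 members tested, at -0.17. Mir495 had 214 and 78.6 CPM, with a log2 ratio of 1.30.

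The other 5 members stayed under 10 CPM. Mir544 had 20 and 12 reads, or 2.50 and 1.46 CPM. Mir1197 had 1 read in replicate 1 and 17 in replicate 2. Mir654 and Mir453 had 1 read in replicate 1 and 0 in replicate 2, and Gm27379 had 1 and 3. The last 3 were at or under the 3 reads that a count of 0 allows, so at this depth they were not distinguishable from no signal. Mir376c had 416 and 324 CPM, and the first 18 bases of its 5p arm also occur in the hairpin of Mir376b, so this level is uncertain too.

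Levels changed steeply over short distances at some places along the chromosome. The 38 hairpins spread over 38901 bases, with a median of 590 bases between neighbours and 24 of 37 gaps under 1000 bases. Mir412 lies 52 bases after Mir409 and 49 bases before Mir369, yet had 63.5 and 62.7 CPM in the 2 libraries. Mir409 was 79.8-fold above it in replicate 1 and 77.0-fold in replicate 2, and Mir369 was 67.0-fold and 61.4-fold above it. Mir679 ends 20 bases before Mir1193 and stood 10.3-fold and 11.7-fold below it. Mir410, 218 bases after Mir369, was 33.5-fold and 44.5-fold lower than Mir369. These steps were much larger than the difference between libraries for the same genes. Mature arms of the members are 19 to 25 bases long in RefSeq, so levels were not divided by length.

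**Figure D2:**
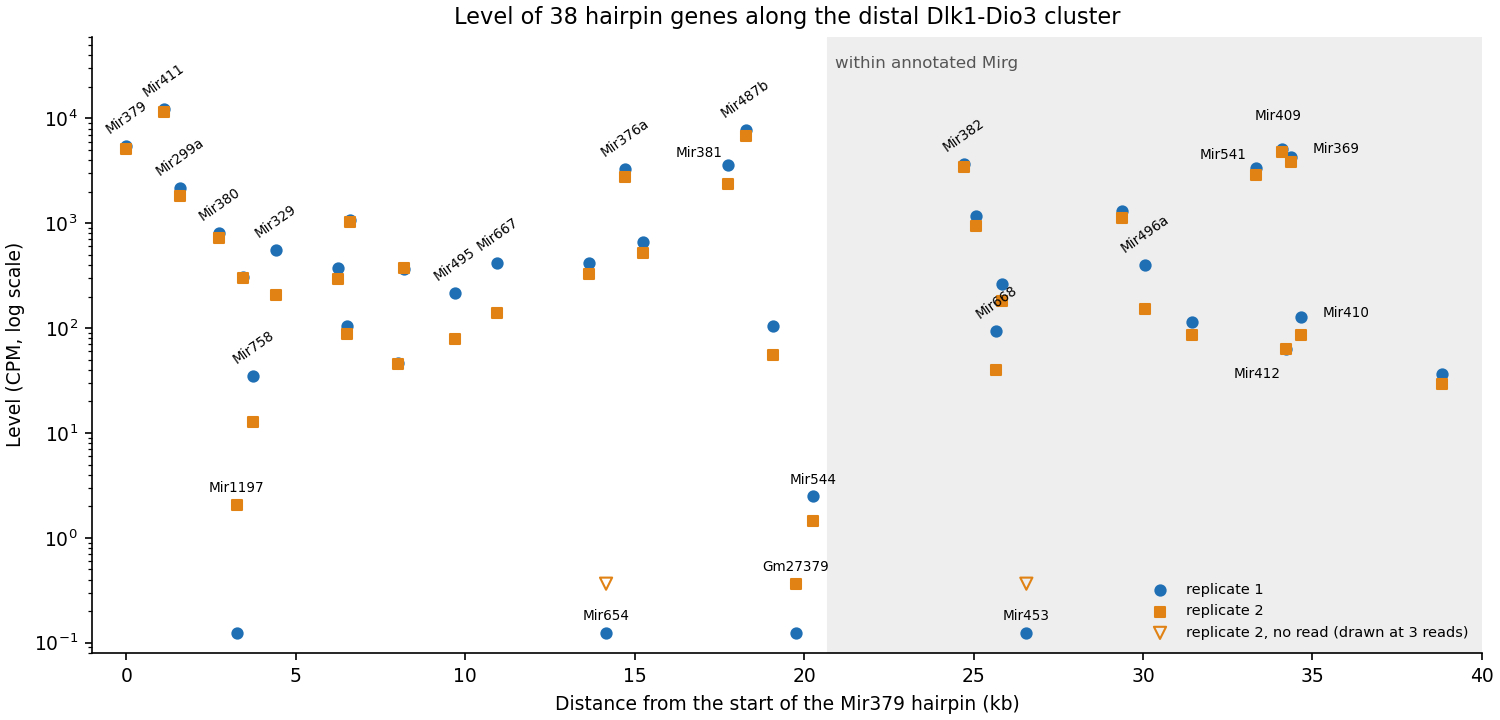
Level of each of the 38 hairpin genes (CPM, log scale, vertical axis) against distance from the start of the Mir379 hairpin (kb, horizontal axis), with circles for replicate 1 and squares for replicate 2. Levels step steeply at some places and stay alike at others: Mir412 at 63.5 and 62.7 CPM sits between Mir409 and Mir369, at 5067 and 4826 CPM and at 4254 and 3849 CPM.

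Over the 33 members at a mean of 10 CPM or more, levels ran from 34.99 to 12234 CPM in replicate 1 and from 12.8 to 11527 CPM in replicate 2. Their median was 416 and 324 CPM, beside 365 and 294 CPM over all 296 genes at that level. The SD of their log2 CPM was 2.41 and 2.64, beside 3.04 and 3.23 over all these genes. Level and position had a Spearman rho of -0.14 across the 33 members, and level and hairpin GC content a rho of -0.30. Both are descriptions across genes that share libraries and are thought to share a transcript.

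The annotation of the host transcript divides the cluster. Mirg, a long noncoding RNA annotated from 109729764 to 109749460, contains 14 of the members, 9 in an exon and 5 in an intron. The other 24, from Mir379 to Mir544, lie upstream of the annotated start and in no host gene on their strand. The 14 inside Mirg held 33.3% of the cluster's reads in replicate 1 and 33.8% in replicate 2. The 24 upstream held 66.7% and 66.2%. The part inside Mirg was thus 33.6% ± 0.371 (SD, n = 2), close to even between the pools.

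The last question was how the members differed between the 2 pools. Library sizes were adjusted by TMM (trimmed mean of M values), and a gene was called where it differed at least 2-fold at an adjusted p under 0.05. Of the 33 members tested, 6 were higher in replicate 1 (18.2%), against 6.76% of the 296 genes tested. No member was called lower, against 0.676% of all genes tested by the same exact binomial test, although 7 members were lower without a minimum fold. Without that minimum, 20 members were higher and 7 lower, against 43.2% and 34.8% of all tested genes, so most genes at this depth differ by more than counting error. The median log2 ratio of replicate 1 over replicate 2 was 0.13 for the members and 0.05 for all genes tested, and 26 of the 33 members lay within 1.5-fold (78.8%, beside 80.4% of all genes tested). With total assigned reads in place of TMM these medians were 0.27 and 0.20, so the sign of a ratio near 1 depends on the scaling.

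The 6 called genes were Mir758, Mir329, Mir495, Mir667, Mir668 and Mir496a, and the highest of them ranked 16 within the cluster. Mir758 and Mir329 are next to each other, as are Mir495 and Mir667, while Mir668 and Mir496a lie in an exon and an intron of Mirg with other members between them. Mir329 (109713481 to 109713577) had 4489 and 1703 reads, or 561 and 207 CPM. Its ratio was 2.45 after scaling (log2 1.29, 95% interval 1.21 to 1.37), with an adjusted p of 1.09e-240 by the two-sided exact binomial test. Mir667 (109720006 to 109720097) had 3320 and 1133 reads, or 415 and 138 CPM, with the largest ratio of the 33 members at 2.72. Mir496a had 3201 and 1241 reads, a ratio of 2.40, and Mir495 had 1715 and 646 reads, a ratio of 2.47. Mir668 had 747 and 324 reads, a ratio of 2.14, and Mir758 had 280 and 105 reads, a ratio of 2.47. All 6 were higher in replicate 1, and the hairpin of Mir758 shares 20 bases with Mir411, which was not called. The adjusted p of the exact test was 2.71e-211 for Mir667, 1.36e-165 for Mir496a, 6.97e-94 for Mir495, 4.34e-32 for Mir668 and 2.07e-16 for Mir758. The intervals of Mir668 (log2 0.91 to 1.29) and Mir758 (0.98 to 1.65) reached below 2-fold.

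The 3p arms of these genes, with seeds in capitals, are shown because they share no seed with one another.

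miR-329-3p: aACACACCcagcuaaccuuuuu
miR-667-3p: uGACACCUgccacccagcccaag
miR-496a-3p: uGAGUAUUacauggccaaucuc
miR-495-3p: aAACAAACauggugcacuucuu
miR-668-3p: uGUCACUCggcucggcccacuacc
miR-758-3p: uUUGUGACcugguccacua

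Hairpin GC content ran from 34.9% to 62.0% over these 6 genes and from 29.1% to 72.3% over the 27 members not called. Mean levels ran from 23.9 to 384 CPM for the called genes, with a median of 211 CPM against 766 CPM for the others. Just outside the threshold, Mir539 had a ratio of 1.72, with 845 and 456 reads, followed by Mir381 at 1.37. Nearest inside it was Mir668 at 2.14. The called genes were a small part of the cluster, with 2.87% of its reads in replicate 1 and 1.201% in replicate 2.

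**Figure D3:**
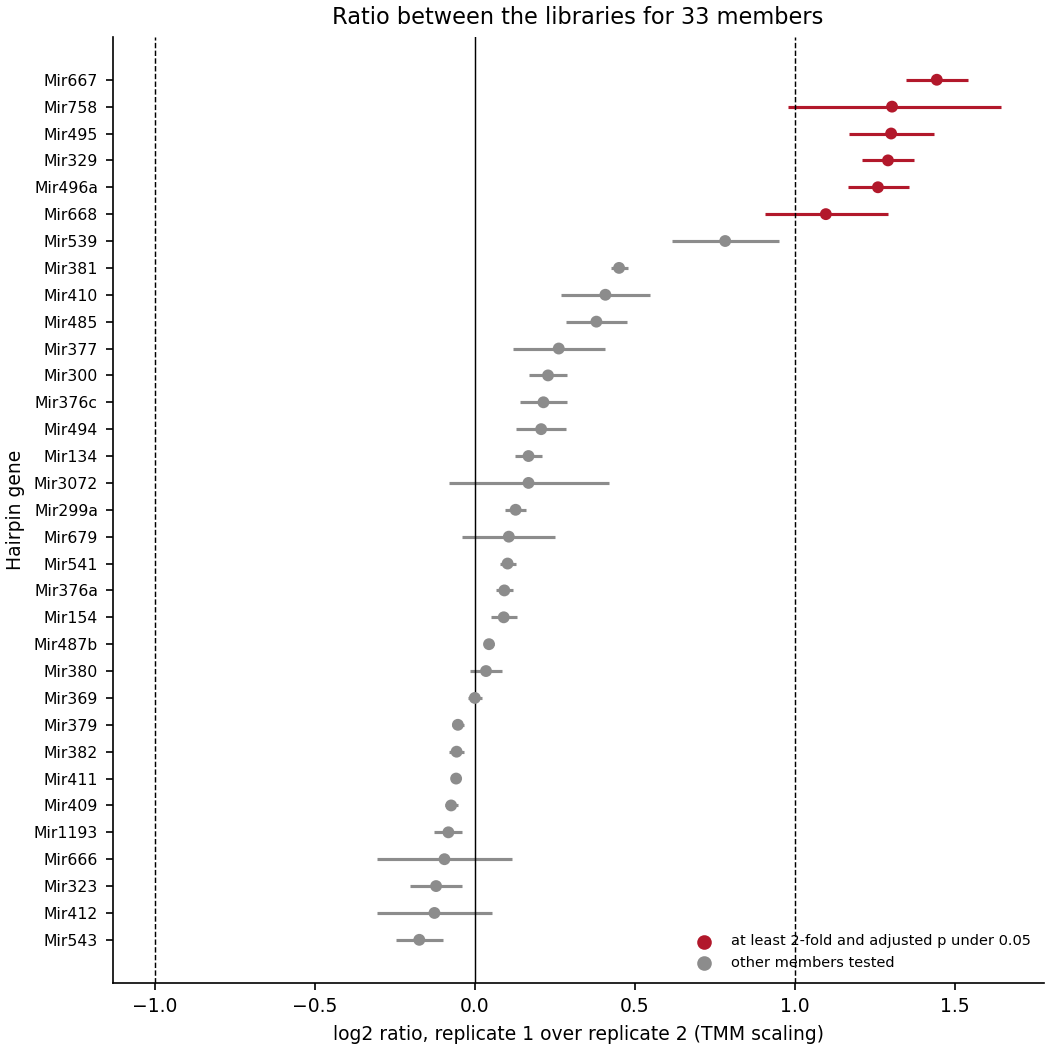
log2 ratio of replicate 1 over replicate 2 after TMM scaling (horizontal axis) for the 33 members tested (vertical axis), with 95% intervals that cover counting error only. The 6 called genes sit between 1.10 and 1.44 to the right of the dashed line at 2-fold, the next is Mir539 at 0.78, and no member lies beyond 2-fold on the left.

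The abundant members were the steadiest. All 13 members at a mean of 1000 CPM or more lay within 1.5-fold, beside 89 of all 103 genes tested at that level (86.4%). The log2 ratios of these 13 members lay between -0.08 for Mir1193 and 0.45 for Mir381. Mir369 was almost equal in the 2 pools after TMM scaling, at a ratio of 1.00. Of the 20 members tested below 1000 CPM, 6 were called. Over all genes tested, 1 of 103 at or above 1000 CPM was higher in replicate 1, and 19 of 193 below it. The log2 ratio and the log2 level had a Spearman rho of -0.38 across the 33 members and -0.31 across all 296 genes. Across the members the ratio had a rho of 0.10 with position and -0.20 with hairpin GC content.

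**Figure D4:**
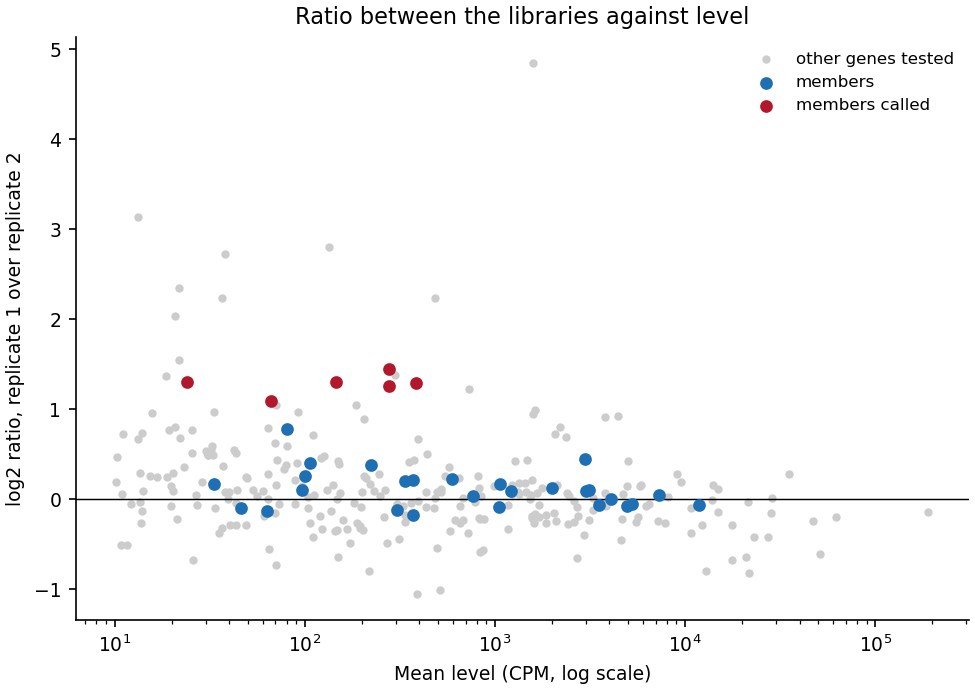
log2 ratio of replicate 1 over replicate 2 (vertical axis) against mean level (CPM, log scale, horizontal axis) for the 33 members tested and, in grey, the other 263 genes tested. The called members lie between 23.9 and 384 CPM, and members above 1000 CPM stay close to a ratio of 1.

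The proximal list was set beside these values. Of its 13 genes tested, 0 were called by the exact binomial test (6.76% higher and 0.676% lower over all genes tested), and 10 were higher and 2 lower without a minimum fold (43.2% and 34.8% over all genes tested). With so few genes tested, a count of 0 calls is near that background. Its median log2 ratio was 0.09, from -0.17 to 0.97. The highest of them was Mir127 at 8641 and 7703 CPM, between Mir411 and Mir487b in level. The difference between the proximal and distal genes in their ratios was not tested.

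Markers of the tissue and of other cell types were read in the same libraries. Summed levels in replicates 1 and 2 were 195333 and 191845 CPM for the 2 smooth muscle genes, 49184 and 49651 CPM for the 5 miR-200 genes of epithelium and 9947 and 11622 CPM for the endocrine gene Mir375. The endothelial gene Mir126a was at 28059 and 28232 CPM, the 4 mesenchymal genes at 9002 and 7346 CPM, the 2 genes of stratified epithelium at 27604 and 37158 CPM and the liver gene Mir122 at 1760 and 1176 CPM. The 8 striated muscle genes with a row, of 9 listed, were at 3250 CPM in replicate 1 and 196 CPM in replicate 2, with Mir133a-1 and Mir133a-2 at 0, and the 3 erythroid genes were at 1199 and 574 CPM. The 8 neural genes with a row, of 9 listed, were at 1458 and 1183 CPM, with Mir124a-1, Mir124a-2 and Mir124a-3 at 0. Gene counts are taken to leave out reads placed in several positions. A count of 0 at a gene with several copies thus does not show absence, and the neural and striated muscle sums may be too low. In CPM, the sums of the striated muscle, erythroid, liver, neural and mesenchymal lists were higher in replicate 1, as were the 6 called members. Those of the stratified epithelium and endocrine lists were lower in replicate 1. The smooth muscle, epithelium and endothelial sums were close to equal in the 2 pools. CPM uses total assigned reads, where the median log2 ratio over all 296 genes tested was 0.20, while the calls used TMM. The direction of a small difference between these sums thus depends on the scaling. The part of any of these lists in the difference of the called members was not tested.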

How the data were processed

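The text deposited beside each table names mm10 and annotation M4, taken as GENCODE M4. The authors deposited raw read counts per gene and library, ignoring strand and for each strand. Which aligner and counter made them is not given in the sources used here. Reads placed in several positions (25.1% and 25.2% of all reads) form a total of their own, so gene counts are taken to leave them out. Assigned reads were 50.8% and 51.5% of all reads. Intervals and floors cover counting error only.

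Of 1973 rows, 1894 matched GENCODE M21 (GRCm38, the assembly of mm10). Each row used its larger strand column, opposite for 22 rows. Scaling used TMM (edgeR 4.0.16, R 4.3.3) and a pseudocount of 0.5. Counts were tested by a two-sided exact binomial test with Benjamini-Hochberg adjustment over all genes at a mean of 10 CPM. DESeq2 1.42.0 gave alternative size factors. Python 3.11.15, numpy 2.4.6, pandas 2.3.3, scipy 1.17.1 and matplotlib 3.10.9 were used.

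Members and lists were chosen with earlier results of these data known. Values are given for the 10 highest members, the 4 on the opposite strand, those called, those sharing a seed and those without a read in a library. Others were named after their values were seen.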

Additional observations from a re-analysis of the deposited data

Results flagged for a closer look

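Reads on the own strand of the row Mir299b, which the profile of Mir299a leaves out, stood at 4.44 ± 0.257 CPM (SD, n = 2), with 37 reads in replicate 1 and 35 in replicate 2, above the 3 reads that a count of 0 allows. The first 18 bases of miR-299a-3p also occur in the hairpin of Mir299b, and which hairpin these reads came from was not tested.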

How the results depend on the processing

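The cluster's share of 5.61% became 4.68% with the sense column only, 2.87% of all reads in the libraries and 3.65% without members that share 20 bases with another hairpin; it was 5.22% and 5.99% in single libraries. The 5 highest members held 70.8% of the cluster with the sense column only. Members sharing a seed held 41.8% with the sense column only and 41.2% when the seed was bases 2 to 7. Without a minimum fold, 20 members were higher in replicate 1 and 7 lower; without a filter on low counts 1 was lower, Mir1197, with 1 and 17 reads. The same 6 genes were called higher with DESeq2 size factors, total-read scaling, no filter, the sense column and the column that ignores strand, and 4 of them with a mean of 100 CPM, where fewer genes were tested. Scaling by total assigned reads moved the median log2 ratio of the members from 0.13 to 0.27 and that of all genes from 0.05 to 0.20, a shift that a scaling factor gives every gene alike. For 17 single genes, 34 ratios under other scalings kept their call and 17 levels that ignore strand stayed within 1 SD, but ratios near 1 changed sign, such as Mir379 from -0.05 under TMM to 0.09 with total reads. A level of 10 CPM in both libraries was reached by 33 members, 1 CPM by 34 and 100 CPM by 23. With 1 library left out no test between libraries remains. Hairpins with identical stretches can lack reads placed in several positions.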

Other observations

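Seeds of 12 members also occur in RefSeq miRNAs that are not among the 38, 2 of them from the same locus (miR-299b and miR-376b). miR-329-3p has the seed of miR-362-3p, miR-410-3p that of miR-344d-3p and miR-344e-3p, and miR-1193-3p that of miR-370-5p, whose gene Mir370 lies in the proximal part of the same domain and had 334 and 341 CPM in replicates 1 and 2. Mir1193 itself had 1074 and 1029 CPM. Which arms of these hairpins were sequenced was not tested.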
